A study of Mus musculus with 9 samples.

Results

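Blood and lymphatic vessels of mouse skin lesions were described through 10 genes of endothelial cells, the cells that line vessels: Pecam1, Cdh5, Kdr, Flt1, Tek, Sox17, Sox18, Prox1, Flt4 and Pdpn. They are the rows of the deposited count table with these symbols, 10 of 54456 genes, and all 10 were among the 26081 genes with enough counts to test. Polyadenylated RNA was sequenced from 9 libraries of AA-like skin lesions, as the labels name them, and the study concerns alopecia driven by the immune system. Untreated lesions gave 3 libraries, lesions treated with empty MN (microneedles without a drug load) gave 3, and lesions treated with MN loaded with IL-2 and CCL22 gave 3 (the empty and the loaded device in the plots). IL-2 makes T cells grow, and CCL22 is a chemokine for cells that carry CCR4. All lesions thus share the AA-like state, and lesion-free skin is not analysed here. The sources used here do not state how the lesions were induced, or the strain, age, dose and time after treatment.

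Endothelial cells are held together by VE-cadherin (Cdh5) and PECAM-1, and are guided by VEGF through the receptors encoded by Kdr, Flt1 and Flt4 and by angiopoietins through Tek. In blood vessels KDR carries most of the VEGF growth signal, while FLT1 binds VEGF tightly and in part acts as a trap for it. Lymphatic vessels arise under PROX1 and depend on VEGF-C acting through FLT4. In skin, blood vessels feed the hair follicle and lymphatic vessels drain fluid and immune cells.

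Kdr, Flt1 and Sox17 were higher, and Flt4 and Pdpn lower, in lesions treated with either device than in untreated lesions. Cdh5 and Prox1 were higher with empty MN than in untreated lesions. Between the devices, Flt1 and Prox1 were lower with the loaded MN. Sox18 was called higher with the loaded MN in both of its comparisons, close to the threshold. Pecam1 and Tek, carried by endothelial cells of most vessels, passed none of the 3 tests. Levels are given as CPM, which are counts relative to the library size after TMM scaling, and a gene was called where the Benjamini-Hochberg adjusted p of edgeR's quasi-likelihood test over all tested genes was under 0.05.

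Against untreated lesions, empty MN gave 7 of 10 called members, 5 higher and 2 lower, while 48.3% of all tested genes were called, 20.2% higher and 28.1% lower. Loaded MN against untreated gave 6 of 10 called, 4 higher and 2 lower, beside 42.3% of all tested genes, 19.0% higher and 23.3% lower. For loaded against empty MN, 3 of 10 were called, 1 higher and 2 lower, beside 41.4% of all genes, 22.9% higher and 18.5% lower. Of all calls, 41.7%, 44.9% and 55.3% were higher in these comparisons, and 57.9%, 68.1% and 61.3% with library size alone. In 10 genes the member counts, 70%, 60% and 30%, are not read as a result about the members beside backgrounds of that size. The median log2 fold change of the members was 0.11, 0.089 and 0.011 in these comparisons, and that of all tested genes -0.016, -0.014 and 0.015. The 3 libraries of a group did not overlap those of the other group for 6 members in empty MN against untreated, 4 higher and 2 lower, beside 54.6% of all genes, 23.5% higher and 31.1% lower. In loaded MN against untreated this was so for 6, 4 higher and 2 lower, beside 52.7%, 24.6% higher and 28.1% lower. In loaded against empty MN it was so for 2, both lower, beside 50.8%, of which 22.7% of all genes lower. Since no label ties the libraries of a group to separate animals, the p-values reflect the spread between the libraries alone, and that spread may be technical.

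**Figure D1:**
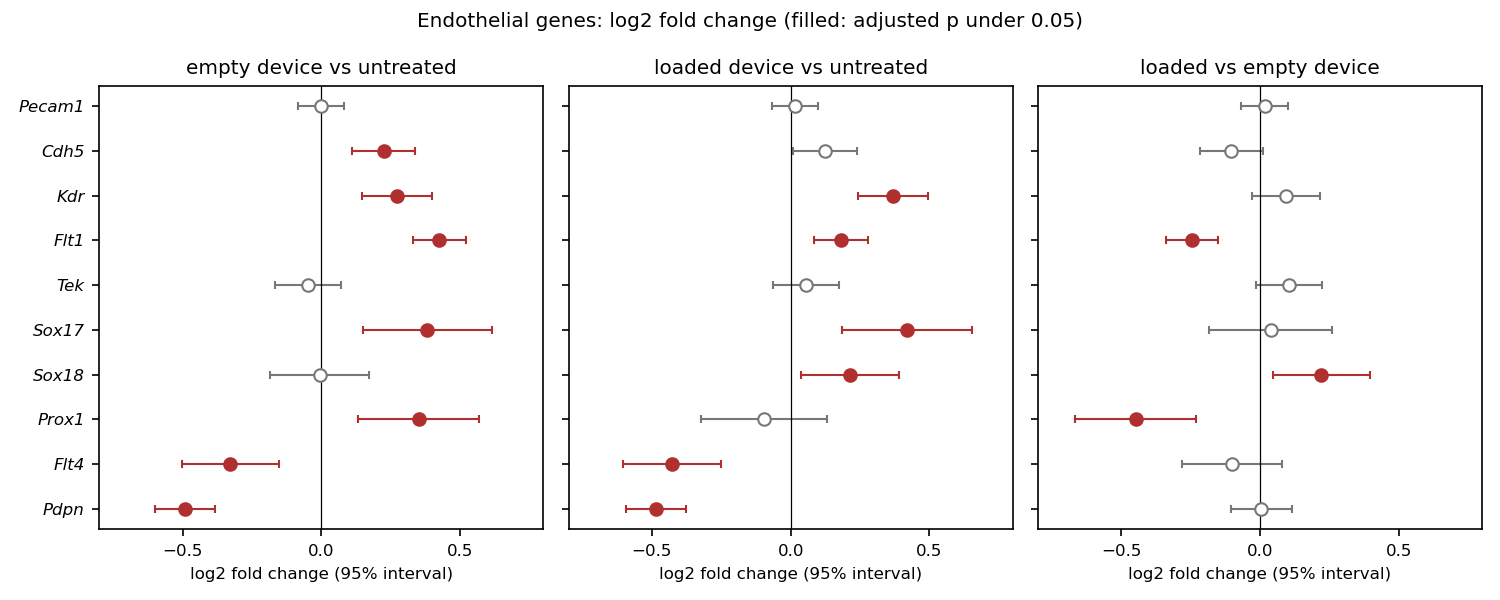
Log2 fold change of each endothelial gene (horizontal axis, points, with 95% confidence intervals as bars) in the 3 comparisons, from edgeR; filled points passed an adjusted p of 0.05. Pdpn lies lowest against untreated lesions at -0.49 and -0.49, and Prox1 lowest between the devices at -0.45.

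Libraries held between 85962714 and 96740589 counts in total, and the members had from 181 counts (Prox1) to 3828 (Pecam1) in a library, and the common biological coefficient of variation of the fit was 0.0390. Mitochondrial genes took 4.56% to 4.72% of counts in untreated, 3.31% to 3.42% in empty MN and 3.78% to 3.90% in loaded MN libraries. In pieces of whole skin, fewer cells of a type and less RNA per cell cannot be told apart. Keratinocyte genes, which mark skin, were present in every library, with 6 basal keratinocyte genes that summed 9993 CPM or more. For endothelium, 20 other blood endothelial genes were all tested and summed from 222 to 231 CPM in untreated, 229.5 to 256 in empty MN and 235 to 239 in loaded MN libraries.

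The promoters of 3 VEGF receptor genes that moved in different directions, and of Pdpn, are shown for the local context of their start sites. RefSeq tables (mouse build GRCm38.p6, not the mm39 build of the counts) hold windows of 300 bases, from 250 before to 50 after a start, for 6 of the 10 members. They are written 5′ to 3′, with each core of the ETS family of endothelial transcription factors, GGAAG on either strand (CTTCC on the other), in capitals. The windows are chr5:75978406-75978705 (minus strand) for Kdr, chr5:147725962-147726261 (minus) for Flt1, chr11:49609429-49609728 (plus) for Flt4 and chr4:143299515-143299814 (minus) for Pdpn.
Kdr: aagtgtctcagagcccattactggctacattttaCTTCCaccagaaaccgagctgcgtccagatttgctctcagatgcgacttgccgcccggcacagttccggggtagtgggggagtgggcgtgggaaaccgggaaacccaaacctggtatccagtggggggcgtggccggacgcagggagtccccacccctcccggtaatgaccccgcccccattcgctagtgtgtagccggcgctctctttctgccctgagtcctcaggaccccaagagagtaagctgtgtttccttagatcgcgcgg
Flt1: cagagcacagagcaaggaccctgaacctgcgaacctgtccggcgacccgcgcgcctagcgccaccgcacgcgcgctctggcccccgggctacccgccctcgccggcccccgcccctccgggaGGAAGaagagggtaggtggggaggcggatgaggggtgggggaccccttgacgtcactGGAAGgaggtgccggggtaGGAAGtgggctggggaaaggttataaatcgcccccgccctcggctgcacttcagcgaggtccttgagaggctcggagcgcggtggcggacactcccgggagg
Flt4: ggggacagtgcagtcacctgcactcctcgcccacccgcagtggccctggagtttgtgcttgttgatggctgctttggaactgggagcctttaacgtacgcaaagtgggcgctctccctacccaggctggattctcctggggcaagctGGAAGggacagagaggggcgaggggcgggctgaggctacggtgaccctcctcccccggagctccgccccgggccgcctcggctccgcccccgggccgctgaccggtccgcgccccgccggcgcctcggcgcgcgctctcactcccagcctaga
Pdpn: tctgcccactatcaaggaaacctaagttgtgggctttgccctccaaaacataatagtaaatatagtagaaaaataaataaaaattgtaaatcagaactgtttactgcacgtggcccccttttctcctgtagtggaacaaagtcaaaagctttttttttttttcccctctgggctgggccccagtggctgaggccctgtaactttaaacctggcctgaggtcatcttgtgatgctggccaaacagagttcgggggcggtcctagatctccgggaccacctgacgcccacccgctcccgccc
The Flt1 window holds 3 ETS cores, those of Kdr and Flt4 hold 1 each and that of Pdpn holds 0, while 71.4% of 32851 promoter windows hold at least 1. The core of the hypoxia response element, ACGTG or GCGTG on either strand, occurs 2 times in the Kdr window, 1 time in those of Flt1 and Pdpn and 0 times in that of Flt4, and is in 43.8% of windows. A match describes the letters only, and no binding was measured here.

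Among the genes of cell junctions, Pecam1 (platelet and endothelial cell adhesion molecule 1, chr11:106545043-106641454, minus strand in mm39) was the steadiest of the members. It had 37.7, 35.6 and 37.7 CPM in untreated, 35.6, 35.7 and 39.7 in empty MN and 36.8, 37.5 and 37.98 in loaded MN libraries. The 3 groups overlapped, and the 95% confidence intervals of the log2 fold change were -0.084 to 0.083 for empty MN against untreated, -0.068 to 0.10 for loaded MN against untreated and -0.067 to 0.10 for loaded against empty MN. Scaled to library size alone, Pecam1 was called higher in empty MN against untreated (log2 fold change 0.10, edgeR adjusted p = 0.0418) and in loaded MN against untreated (0.15, edgeR adjusted p = 0.00414), a scaling that moves the median of all tested genes by 0.10 and 0.13 in these comparisons.

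Cdh5 encodes VE-cadherin, the adhesion molecule of endothelial junctions (chr8:104828257-104871143, plus strand). Its values were 16.0, 15.7 and 16.5 CPM in untreated, 17.4, 18.3 and 20.6 in empty MN and 16.7, 17.2 and 18.5 in loaded MN libraries. The groups, in this order, averaged 16.1 ± 0.397, 18.8 ± 1.65 and 17.5 ± 0.906 CPM (mean ± SD, n = 3). All 3 empty MN libraries lay above all 3 untreated ones, and Cdh5 rose 1.17-fold there (log2 fold change 0.23, SE 0.056, edgeR adjusted p = 0.00128). The loaded MN libraries also lay above the untreated ones, by 0.12 on the log2 scale, but the edgeR adjusted p of 0.0834 missed the threshold. It passed with DESeq2 size factors (log2 fold change 0.14, edgeR adjusted p = 0.0375), without empty MN library 3 (0.14, 0.0210), with the 2 groups alone (0.13, 0.0243), with upper-quartile scaling (0.14, 0.0434), with the replicate number as a block (0.12, 0.0477) and with library size alone (0.25, 0.000475). In loaded against empty MN the groups overlapped, with an interval of -0.22 to 0.0099, and a call appeared only with upper-quartile scaling (-0.15, edgeR adjusted p = 0.0255) and without empty MN library 1 (-0.15, 0.0376) among the alternatives run. An opposite-strand gene, Gm29682, overlaps Cdh5 over 4249 bases, but holds only 26 to 57 counts.

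**Figure D2:**
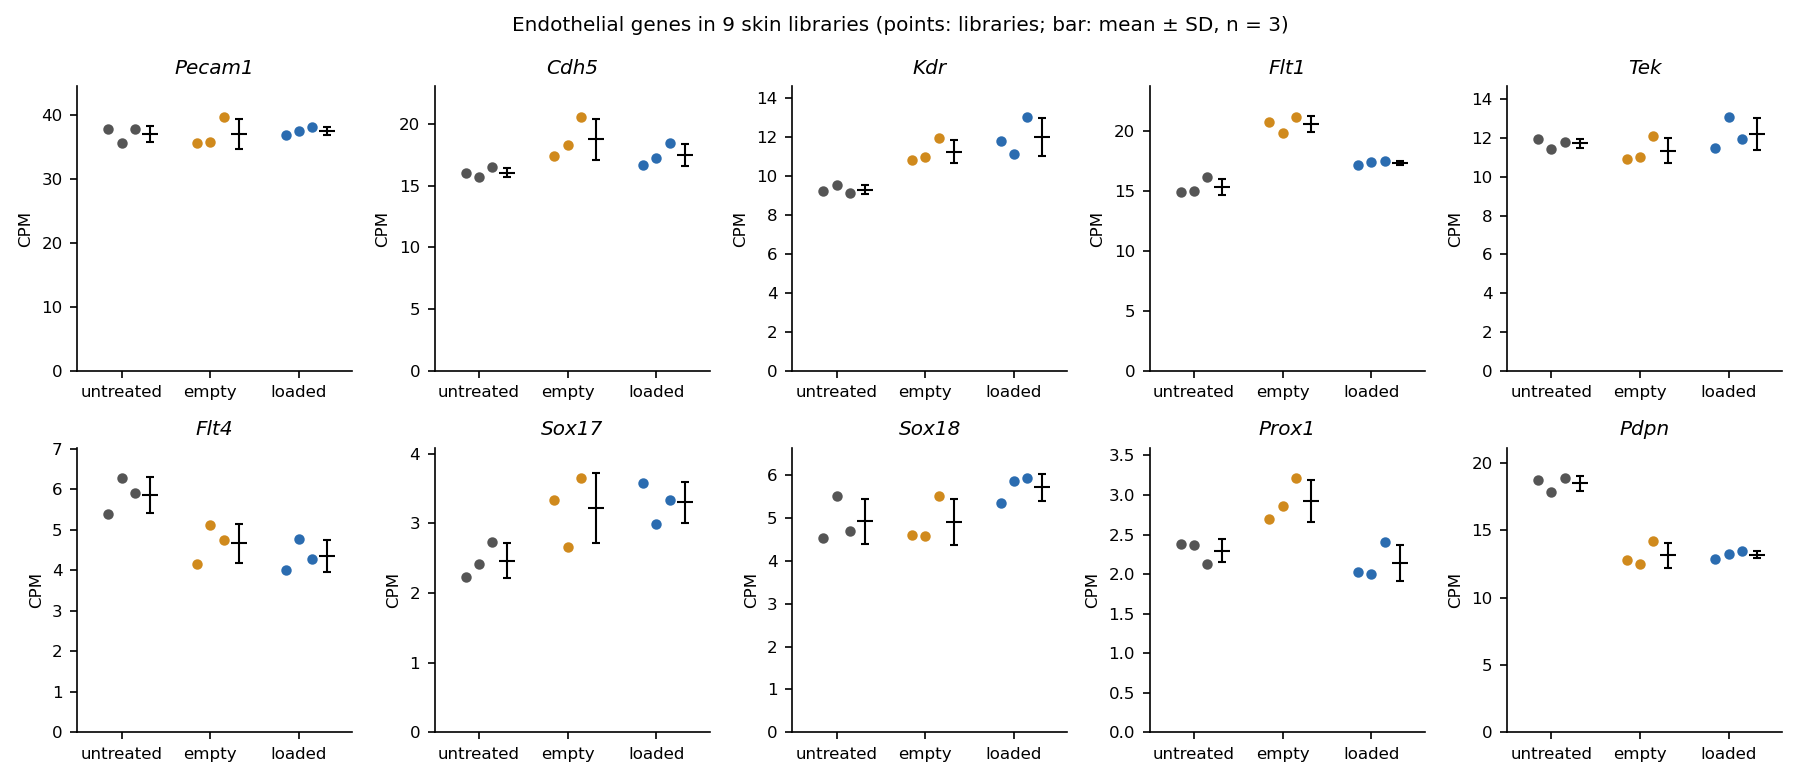
CPM (vertical axis, from 0) of each endothelial gene in the 9 libraries, grouped by treatment, with the mean and SD of 3 libraries beside them. Pdpn is at 18.7, 17.8 and 18.9 CPM in the untreated libraries and between 12.5 and 14.2 in those of both devices, while the Pecam1 groups overlap.

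Kdr and Flt1 encode VEGF receptors 2 and 1 and lie on the same chromosome (chr5:76093487-76139118, minus strand and chr5:147498414-147662821, minus strand). Kdr had 9.21, 9.53 and 9.11 CPM in untreated, 10.8, 10.9 and 11.9 in empty MN and 11.8, 11.1 and 13.0 in loaded MN libraries. Each library of either device lay above each untreated one, and the devices overlapped, with averages in the same order of 9.28 ± 0.219, 11.2 ± 0.594 and 11.98 ± 0.969 CPM (mean ± SD, n = 3). Kdr rose 1.21-fold with empty MN (log2 fold change 0.27, SE 0.062, edgeR adjusted p = 0.000464) and 1.29-fold with loaded MN (log2 fold change 0.37, SE 0.061, edgeR adjusted p = 1.49e-05). Between the devices the interval of the log2 fold change ran -0.029 to 0.22, with an edgeR adjusted p of 0.225.

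Flt1 had 14.9, 14.98 and 16.1 CPM in untreated, 20.7, 19.9 and 21.2 in empty MN and 17.2, 17.5 and 17.5 in loaded MN libraries, and the 3 groups lay apart at 15.3 ± 0.696, 20.6 ± 0.695 and 17.4 ± 0.169 CPM (mean ± SD, n = 3). Flt1 rose 1.34-fold in empty MN against untreated (log2 fold change 0.43, SE 0.047, edgeR adjusted p = 1.09e-08) and 1.13-fold in loaded MN against untreated (log2 fold change 0.18, SE 0.048, edgeR adjusted p = 0.00279). It was 1.19-fold lower with loaded than with empty MN (log2 fold change -0.24, SE 0.046, edgeR adjusted p = 6.99e-05). The ratio of Flt1 over Kdr within a library, on the log2 scale, was 0.69, 0.65 and 0.83 in untreated, 0.94, 0.86 and 0.83 in empty MN and 0.55, 0.65 and 0.43 in loaded MN libraries. All loaded MN values lay below all untreated and empty MN ones, and all empty MN values above the untreated ones, though the nearest libraries of neighbouring groups were close. On a linear scale, the ratio ran 1.57 to 1.77 in untreated, 1.78 to 1.92 in empty MN and 1.34 to 1.57 in loaded MN libraries. The ratio is not corrected for gene length, so only its change between groups is read, and an exact permutation test of 3 against 3 libraries cannot go below p = 0.1.

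Of the 8 ligands of these receptors and of Tek (VEGF and angiopoietin genes), 3 were called higher and 1 lower in empty MN against untreated, 0 and 3 in loaded MN against untreated, and 0 and 5 in loaded against empty MN. The 1 lower call in empty MN against untreated, Angpt4, was lost without untreated library 1 or 2 or any 1 of the empty MN libraries (edgeR adjusted p = 0.0615 to 0.127) and with the other scalings. Without empty MN library 3 the last count was 3, without loaded MN library 1 there was 1 higher call beside it, and without untreated library 3 the lower count in loaded MN against untreated was 1. Vegfa, the main ligand of KDR and FLT1, had 41.9, 45.2 and 44.3 CPM in untreated, 67.0, 65.7 and 68.5 in empty MN and 41.7, 42.7 and 44.2 in loaded MN libraries. The empty MN libraries stood apart above both other groups. Vegfa rose 1.53-fold with empty MN (log2 fold change 0.61, SE 0.036, edgeR adjusted p = 3.01e-14), and was 1.57-fold lower with loaded than with empty MN (log2 fold change -0.65, SE 0.036, edgeR adjusted p = 1.55e-14). In loaded MN against untreated its log2 fold change was -0.032, with an interval of -0.11 to 0.043, and with library size alone it was 0.10 and called (edgeR adjusted p = 0.0345). Vegfb, a ligand of FLT1, followed the same order, with a log2 fold change of 0.40 in empty MN against untreated (edgeR adjusted p = 5.75e-06) and -0.41 in loaded against empty MN (edgeR adjusted p = 4.89e-06). Vegfd, a ligand of FLT4, did too, at 0.19 (edgeR adjusted p = 0.00221) and -0.24 (edgeR adjusted p = 0.000278). In loaded MN against untreated, Angpt4, an angiopoietin, was lower at -0.72 (edgeR adjusted p = 0.000129). The median log2 fold change of the 8 ligands was -0.29 in loaded against empty MN. In the other comparisons it was -0.0025 (empty MN against untreated) and -0.039 (loaded MN against untreated), values whose sign turned with library size alone.

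Markers of skeletal muscle and fat in the tissue piece also differed between the groups. The 6 muscle fibre genes summed from 6781 to 6994 CPM in untreated, 8525 to 9965 in empty MN and 6226 to 6663 in loaded MN libraries, and in empty MN against untreated 5 were called higher and 1 lower, in loaded MN against untreated 1 and 4, and in loaded against empty MN 1 and 5. With library size alone the calls in loaded MN against untreated were 2 and 2, and without untreated library 1 the 1 higher call there, Myh4, was lost (edgeR adjusted p = 0.0617). Of 6 adipocyte genes, 1 was called higher and 5 lower in empty MN against untreated, 4 and 0 in loaded MN against untreated and 6 and 0 in loaded against empty MN, and they summed from 153.8 to 154.5 CPM in untreated, 126.7 to 130.4 in empty MN and 194.9 to 199.3 in loaded MN libraries. None of these markers was at 0, and their part in the Vegfa, Flt1 and Kdr values was not tested.

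Tek, the angiopoietin receptor (chr4:94627526-94763213, plus strand), had 11.9, 11.4 and 11.8 CPM in untreated, 10.9, 11.01 and 12.1 in empty MN and 11.5, 13.1 and 11.96 in loaded MN libraries, with overlap between all groups. Its interval was -0.17 to 0.072 in empty MN against untreated, -0.062 to 0.18 in loaded MN against untreated and -0.014 to 0.22 in loaded against empty MN. Scaled to library size alone it was called higher in loaded MN against untreated (0.19, edgeR adjusted p = 0.00821). Set against Cdh5, Tek was lower in every empty MN library than in every library of the other groups. The log2 ratio of Tek over Cdh5 was -0.43, -0.45 and -0.48 in untreated libraries. It was -0.67, -0.73 and -0.77 in empty MN and -0.54, -0.40 and -0.63 in loaded MN libraries. The ratio of Pecam1 over Cdh5 was likewise lower in every empty MN library than in every library of the other groups. Cdh5 itself rose with empty MN, so these ratios are not read as a fall of Tek or Pecam1.

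**Figure D3:**
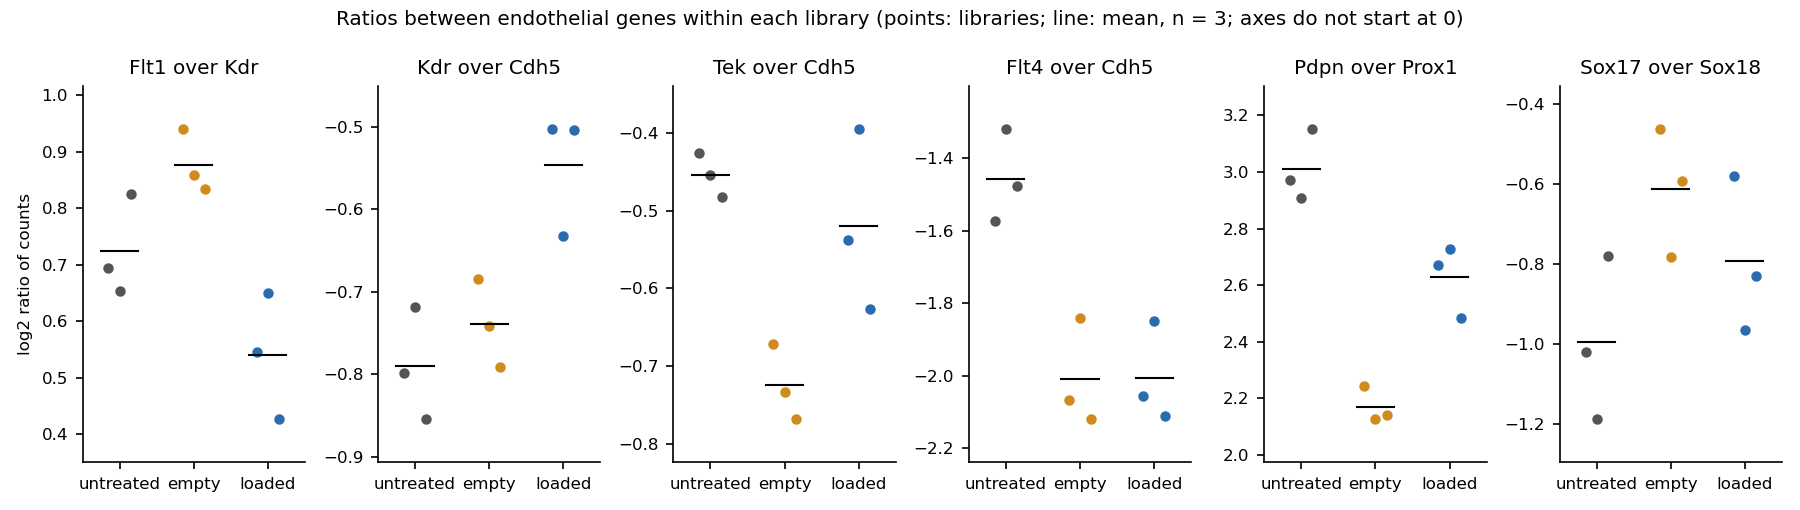
Log2 ratios of counts within each library (vertical axis) for pairs of endothelial genes, with 1 point per library, the mean of 3 libraries as a line and axes that do not start at 0. The Flt1 over Kdr points of loaded MN lie lowest, and those of Flt4 over Cdh5 lie lower with both devices than in untreated lesions.

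The SoxF factors Sox17 and Sox18 drive endothelial identity, Sox17 with an arterial emphasis and Sox18 also in the start of lymphatic development. Sox17 (chr1:4561154-4567577, minus strand) had 2.24, 2.42 and 2.74 CPM in untreated, 3.34, 2.66 and 3.65 in empty MN and 3.58, 2.99 and 3.33 in loaded MN libraries, from 184 to 352 counts. The loaded MN libraries lay above the untreated ones, and the empty MN libraries overlapped them, with averages of 2.46 ± 0.253, 3.22 ± 0.506 and 3.30 ± 0.294 CPM (mean ± SD, n = 3) in untreated, empty MN and loaded MN. Sox17 rose 1.30-fold with empty MN (log2 fold change 0.38, SE 0.11, edgeR adjusted p = 0.00635) and 1.34-fold with loaded MN (log2 fold change 0.42, SE 0.11, edgeR adjusted p = 0.00352). The interval between the devices was -0.18 to 0.26.

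Sox18 (chr2:181311629-181313433, minus strand) had 4.53, 5.51 and 4.70 CPM in untreated, 4.60, 4.57 and 5.51 in empty MN and 5.34, 5.84 and 5.92 in loaded MN libraries, and the groups overlapped in every comparison. In empty MN against untreated its log2 fold change was -0.0062 with an interval of -0.18 to 0.17. It passed the threshold in loaded MN against untreated (log2 fold change 0.21, SE 0.086, edgeR adjusted p = 0.0457) and in loaded against empty MN (log2 fold change 0.22, SE 0.085, edgeR adjusted p = 0.0378), but both calls were close to it. The call against untreated was lost without untreated library 1 (edgeR adjusted p = 0.190), untreated library 3 (0.149), loaded MN library 2 (0.134) or 3 (0.149), in limma-voom (0.0565) and without the robust estimate (0.0518). The call against empty MN was lost without empty MN library 1 (edgeR adjusted p = 0.144) or 2 (0.148), loaded MN library 2 (0.113) or 3 (0.126), with upper-quartile scaling (0.120), with a stricter count filter (0.0572) and in DESeq2 (0.0699). Relative to Cdh5, Sox18 was lowest with empty MN, with log2 ratios of -1.82, -1.51 and -1.81 in untreated, -1.92, -2.00 and -1.90 in empty MN and -1.64, -1.56 and -1.64 in loaded MN libraries. Cdh5 itself rose with empty MN, so this ratio is not read as a fall of Sox18.

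Sox7, the other SoxF gene, had 19.4, 21.5 and 19.4 CPM in untreated, 33.4, 32.9 and 32.9 in empty MN and 16.5, 17.2 and 17.7 in loaded MN libraries. It rose 1.65-fold with empty MN (edgeR adjusted p = 1e-13), and was 1.93-fold lower with loaded than with empty MN (edgeR adjusted p = 7.42e-16). Of 13 endothelial transcription factors, 9 were called higher and 2 lower in empty MN against untreated, 2 and 1 in loaded MN against untreated, and 2 and 7 in loaded against empty MN, with median log2 fold changes of 0.20, 0.050 and -0.15. Without loaded MN library 1, 4 in place of 7 were called lower in loaded against empty MN. The 2 called higher in loaded MN against untreated became 1 without untreated library 2 or 3 or loaded MN library 2 or 3, and the 2 called lower in empty MN against untreated became 1 without untreated library 1 or empty MN library 3. Klf2, induced by blood flow, had 21.0, 23.5 and 23.3 CPM in untreated, 37.4, 40.6 and 36.3 in empty MN and 20.9, 22.0 and 22.1 in loaded MN libraries. Klf2 rose 1.68-fold with empty MN (edgeR adjusted p = 3.03e-13), and loaded MN lay 1.76-fold below empty MN (edgeR adjusted p = 9.66e-14). Foxc1 went the other way, at -0.25 in empty MN against untreated (edgeR adjusted p = 4.28e-06) and 0.50 in loaded against empty MN (edgeR adjusted p = 1.19e-11). Some of the 13 stood far above Cdh5, which averaged 16.1 CPM in untreated libraries. Klf4 averaged 459 and Ets2 186 CPM there. The part of other skin cells in the values of this list was not tested.

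**Figure D4:**
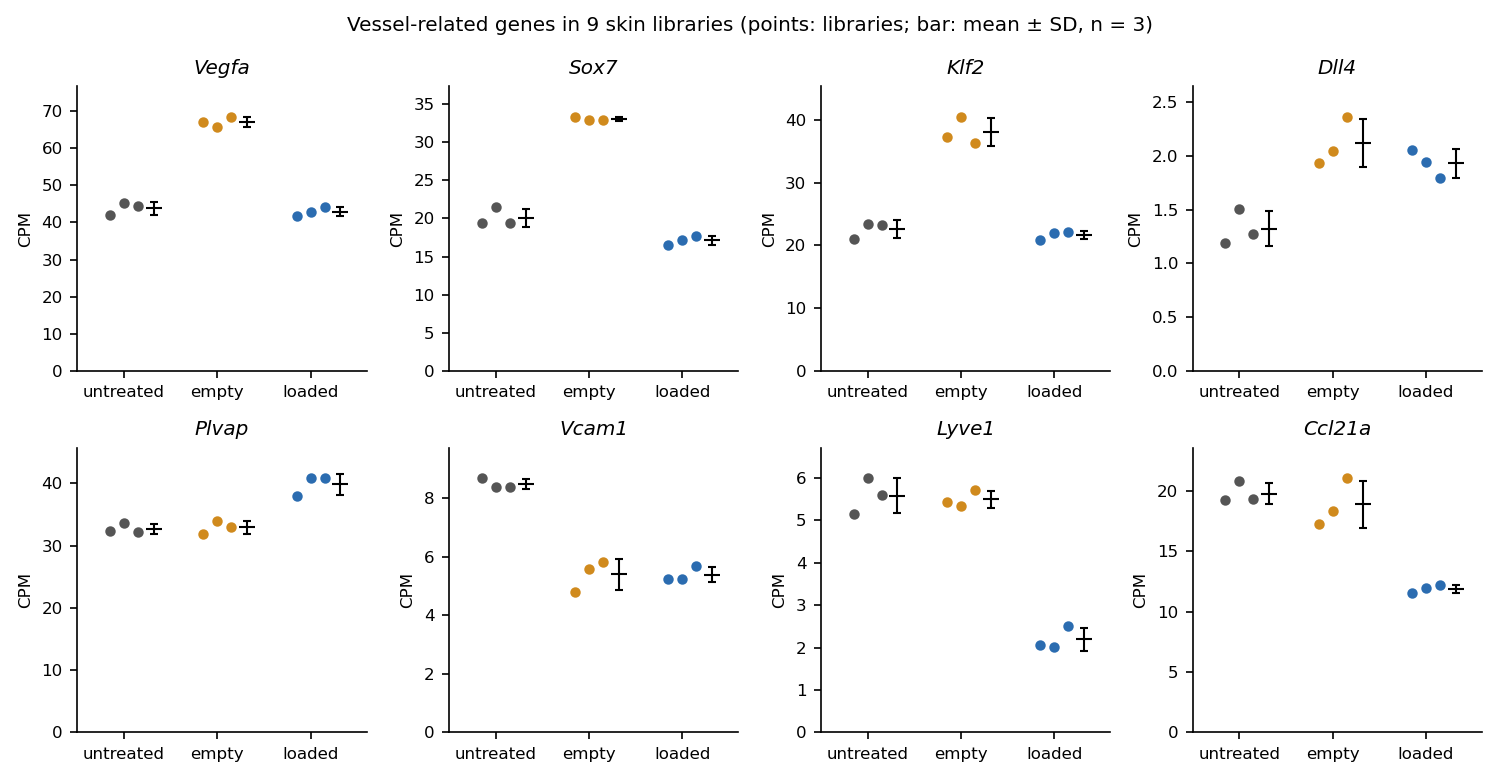
CPM (vertical axes, from 0) of 8 further vessel-related genes in the 9 libraries, with mean and SD of 3 libraries. Vegfa, Sox7 and Klf2 are highest with empty MN, and Lyve1 and Ccl21a are lowest with loaded MN.

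Prox1, which sets lymphatic identity (chr1:189850232-189902911, minus strand), had 2.38, 2.37 and 2.12 CPM in untreated, 2.70, 2.86 and 3.21 in empty MN and 2.02, 1.995 and 2.41 in loaded MN libraries, from 181 to 310 counts. The empty MN libraries lay above all others, and the 3 groups averaged 2.29 ± 0.146, 2.92 ± 0.264 and 2.14 ± 0.230 CPM (mean ± SD, n = 3). Prox1 rose 1.28-fold with empty MN (log2 fold change 0.35, SE 0.11, edgeR adjusted p = 0.0072) and was 1.36-fold lower with loaded than with empty MN (log2 fold change -0.45, SE 0.11, edgeR adjusted p = 0.000983). In loaded MN against untreated, the interval was -0.32 to 0.13. Prox1 is also known in muscle fibres, whose summed markers were highest with empty MN too. The part of muscle in the Prox1 values was not tested. An antisense gene, Prox1os, shares 419 bases with it and holds 15 to 43 counts.

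Flt4 encodes VEGF receptor 3, which lymphatic vessels use (chr11:49500090-49543566, plus strand). Its values were 5.38, 6.28 and 5.91 CPM in untreated, 4.15, 5.11 and 4.74 in empty MN and 4.01, 4.78 and 4.27 in loaded MN libraries. Every library of both devices lay below every untreated one, and the 3 groups averaged 5.86 ± 0.448, 4.66 ± 0.484 and 4.35 ± 0.390 CPM (mean ± SD, n = 3). Flt4 fell 1.26-fold with empty MN (log2 fold change -0.33, SE 0.086, edgeR adjusted p = 0.00207) and 1.35-fold with loaded MN (log2 fold change -0.43, SE 0.087, edgeR adjusted p = 0.000182). Between the devices the interval was -0.28 to 0.080 (edgeR adjusted p = 0.396). Set against Cdh5, Flt4 stayed lower with both devices, with log2 ratios of -1.57, -1.32 and -1.48 in untreated, -2.07, -1.84 and -2.12 in empty MN and -2.06, -1.85 and -2.11 in loaded MN libraries.

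Pdpn, podoplanin of lymphatic endothelium, is also made by keratinocytes, fibroblasts and other cells (chr4:142994001-143026134, minus strand). It had 18.7, 17.8 and 18.9 CPM in untreated, 12.8, 12.5 and 14.2 in empty MN and 12.9, 13.2 and 13.5 in loaded MN libraries. The untreated libraries lay apart above all those of the devices, at group averages of 18.5 ± 0.551, 13.1 ± 0.918 and 13.2 ± 0.282 CPM (mean ± SD, n = 3). It fell 1.41-fold with empty MN (log2 fold change -0.49, SE 0.052, edgeR adjusted p = 4.87e-09) and 1.40-fold with loaded MN (log2 fold change -0.49, SE 0.052, edgeR adjusted p = 1.19e-08), and the interval between the devices was -0.10 to 0.11. Pdpn over Prox1, on a linear scale, was 7.51 to 8.88 in untreated, 4.37 to 4.73 in empty MN and 5.59 to 6.62 in loaded MN libraries, without overlap. Markers of other skin cells differed as well. Injury-associated keratinocyte genes summed from 3894 to 4205 CPM in untreated, 2284 to 2548 in empty MN and 2138 to 2168 in loaded MN libraries, and 6 of 6 were lower in empty MN against untreated and 5 of 6 in loaded MN against untreated. The 6 fibroblast genes, 6 of 6 lower in both of those comparisons (3 of 6 in empty MN against untreated with library size alone), summed from 1441 to 1489.5 CPM in untreated, 1229 to 1321 in empty MN and 957 to 985 in loaded MN libraries. Of 6 basal keratinocyte genes, 1 was higher and 3 lower in empty MN against untreated and 0 and 4 in loaded MN against untreated (2 and 2 in both with library size alone), and they summed from 14054 to 14799 CPM in untreated, 10658 to 11154 in empty MN and 9993 to 10464 in loaded MN libraries. Of 5 dermal papilla genes, from the cells at the base of the hair follicle, 0 were higher and 4 lower in empty MN against untreated and 4 and 1 in loaded MN against untreated, and they summed from 51.1 to 54.9 CPM in untreated, 32.7 to 36.5 in empty MN and 62.8 to 68.7 in loaded MN libraries. None of these markers was at 0, and their part in the Pdpn values was not tested.

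Lyve1, a hyaluronan receptor of lymphatic vessels and some macrophages, had 5.15, 5.99 and 5.59 CPM in untreated, 5.42, 5.34 and 5.71 in empty MN and 2.06, 2.02 and 2.503 in loaded MN libraries. Loaded MN values lay apart below the rest, 2.54-fold lower than untreated (edgeR adjusted p = 1.83e-12) and 2.502-fold lower than empty MN (edgeR adjusted p = 1.33e-12), whereas empty MN against untreated gave -0.023 with an interval of -0.19 to 0.14. Macrophage genes, of which 7 of 8 were called lower in loaded MN against untreated and 6 of 8 in loaded against empty MN, summed from 251 to 264 CPM in untreated, 222 to 228 in empty MN and 172 to 184 in loaded MN libraries. In empty MN against untreated 7 of the 8 were lower too, while the Lyve1 groups overlapped. None of the 8 was at 0, and their part in the Lyve1 values was not tested. A gene overlaps Ccl21a, a chemokine of lymphatic vessels, on the opposite strand. Ccl21a also has close copies in the genome, so its values are uncertain. They were 19.2, 20.8 and 19.3 CPM in untreated, 17.3, 18.4 and 21.1 in empty MN and 11.5, 11.9 and 12.2 in loaded MN libraries. Nrp2, a co-receptor of FLT4, rose in loaded MN by 0.44 against untreated (edgeR adjusted p = 2.03e-09) and by 0.72 against empty MN (edgeR adjusted p = 2.12e-13). It averaged 90.8, 74.7 and 123 CPM in untreated, empty MN and loaded MN, where Flt4 averaged 5.86, 4.66 and 4.35. Tbx1, of the same list, averaged 35.0, 33.8 and 44.5 CPM in untreated, empty MN and loaded MN. It was higher with loaded MN by 0.34 against untreated (edgeR adjusted p = 5.09e-08) and by 0.40 against empty MN (edgeR adjusted p = 2.63e-09). The part of other cells in the Nrp2 and Tbx1 values was not tested. Of 8 lymphatic genes, 0 were called higher and 3 lower in empty MN against untreated, 2 and 4 in loaded MN against untreated, and 3 and 4 in loaded against empty MN. Their median log2 fold changes were -0.058, -0.16 and -0.092, the value of empty MN against untreated turning positive with library size or upper-quartile scaling.

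Among the 20 other blood endothelial genes, 9 were called higher and 1 lower in empty MN against untreated, 7 and 2 in loaded MN against untreated, and 1 and 4 in loaded against empty MN, where 2 were higher without untreated library 1 or loaded MN library 3. Their median log2 fold changes were 0.15, 0.064 and -0.000055, the last value turning positive with library size alone. With library size alone the higher calls were 14 and 11 against untreated. Plvap, a protein of fenestrated endothelium, had 32.3, 33.6 and 32.2 CPM in untreated, 31.9, 33.9 and 33.0 in empty MN and 37.95, 40.9 and 40.8 in loaded MN libraries, and rose 1.22-fold in loaded MN against untreated (edgeR adjusted p = 5.46e-07). It shares 1819 bases with Gtpbp3, which lies on the opposite strand, and the strands appear counted apart. Adgrl4, an endothelial adhesion receptor, rose by 0.32 with empty MN (edgeR adjusted p = 0.000396) and by 0.44 with loaded MN (edgeR adjusted p = 8.22e-06) against untreated. Ecscr, of the same list, went the other way against untreated. It was lower at -0.58 with empty MN (edgeR adjusted p = 6.03e-06) and -0.49 with loaded MN (edgeR adjusted p = 8.13e-05). Cd34, of vessels and of hair follicle stem cells, was lower with loaded MN, at -0.25 against untreated (edgeR adjusted p = 6.3e-06) and -0.30 against empty MN (edgeR adjusted p = 3.32e-07).

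Of 12 Notch, ephrin and arterial or venous genes, 7 were called higher and 0 lower in loaded MN against untreated, 3 and 0 in loaded against empty MN, and 3 and 1 in empty MN against untreated (7 higher with library size alone, and 2 lower without empty MN library 3). Their median log2 fold changes were 0.14, 0.088 and 0.035. Of the 7, Gja4 and Ephb4 lost their calls without untreated library 1 (edgeR adjusted p = 0.145 and 0.200). The same held without loaded MN library 1 (0.0523 and 0.107) or 3 (0.113 and 0.172), and Ephb4 lost its call in further alternatives. Nrp1 gained a call in some, as with DESeq2 size factors (0.0343). Notch1 and Jag1 averaged 185 and 131 CPM in untreated libraries, and the part of other skin cells in this list was not tested. Dll4, the Notch ligand of tip cells, had 1.19, 1.504 and 1.27 CPM in untreated, 1.93, 2.05 and 2.36 in empty MN and 2.06, 1.94 and 1.79 in loaded MN libraries. It rose with empty MN by 0.68 (edgeR adjusted p = 5.34e-05) and with loaded MN by 0.54 (edgeR adjusted p = 0.00103). Nrp2, Jag1 and Notch1, with smaller p in the 3-group test, differed from Dll4 with empty MN. Against untreated, Nrp2 was lower there at -0.28 (edgeR adjusted p = 1.79e-06). Jag1 at -0.00094 and Notch1 at 0.028 were not called, though both were called higher with library size alone. All 3 were called higher with loaded MN against either other group. Vcam1, which binds leukocytes on vessel walls and is carried by other cells too, had 8.69, 8.39 and 8.37 CPM in untreated, 4.80, 5.58 and 5.82 in empty MN and 5.25, 5.24 and 5.68 in loaded MN libraries, with every library of either device below every untreated one. It fell 1.57-fold with empty MN (edgeR adjusted p = 1.05e-08) and 1.57-fold with loaded MN (edgeR adjusted p = 2.01e-08). Of 6 leukocyte adhesion genes, 0 were called higher and 3 lower in empty MN against untreated, and 0 and 2 in loaded MN against untreated, where 1 was left without loaded MN library 1. In loaded against empty MN edgeR, limma-voom and DESeq2 each called 0 of the 6, and 0 had an unadjusted edgeR p under 0.05, but without loaded MN library 1 Icam1 was called higher (0.15, edgeR adjusted p = 0.0443).

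Of 10 hypoxia-induced genes, 4 were called higher and 2 lower in empty MN against untreated, 0 and 5 in loaded MN against untreated, and 0 and 8 in loaded against empty MN, with median log2 fold changes of 0.048, -0.21 and -0.35. With library size alone the calls were 5 and 1, 2 and 4, and 0 and 8. Vegfa is on this list too. Egln3, an oxygen sensor induced by hypoxia, gave 0.26, -0.50 and -0.77 in these comparisons, each called by edgeR, and Pgk1, a glycolytic enzyme, -0.73, -0.86 and -0.13, likewise called. The Pgk1 call in loaded against empty MN was lost without loaded MN library 1 (edgeR adjusted p = 0.0673) or 2 (0.0548). Of 10 genes of pericytes and vascular smooth muscle, the cells that wrap vessels, 5 were called higher and 2 lower in empty MN against untreated, 2 and 3 in loaded MN against untreated (3 and 1 with library size alone) and 2 and 5 in loaded against empty MN. Notch3, a receptor of these cells, rose by 0.42 with empty MN (edgeR adjusted p = 7.72e-11), whereas Acta2, smooth muscle actin, was lower at -0.56 (edgeR adjusted p = 5.13e-13). Without loaded MN library 1, 1 in place of 2 of these 10 genes was called higher in loaded MN against untreated. Des, of the same list, averaged 391, 526 and 347 CPM in untreated, empty MN and loaded MN. The summed muscle fibre markers were highest with empty MN too. Notch3 averaged 145 CPM in untreated libraries, where Cdh5 averaged 16.1. The part of muscle and of other skin cells in this list was not tested. Of 5 genes of platelets, which also carry Pecam1, Gp9 and Ppbp had too few counts to test. Of the other 3, edgeR called 1 higher and 1 lower in each comparison of loaded MN. The higher call, Itga2b, was lost against untreated without untreated library 1 or 2 or loaded MN library 1 or 2 (edgeR adjusted p = 0.0514 to 0.220). Against empty MN it was lost without empty MN library 3 or loaded MN library 1 or 2 (edgeR adjusted p = 0.0573 to 0.227), with upper-quartile scaling and in DESeq2. In empty MN against untreated edgeR, limma-voom and DESeq2 each called 0 of the 3, with 1 at an unadjusted edgeR p under 0.05. That gene, Gp1bb, was called higher by edgeR with DESeq2 size factors (adjusted p = 0.0466), upper-quartile scaling (0.0318), library size alone (0.0238) and without empty MN library 3 (0.0318). Gp1bb held only 19 to 41 counts in a library. It shares 1902 of its 2087 bases with Septin5 on the same strand, so its values are uncertain. The 3 genes summed from 7.26 to 7.73 CPM in untreated, 7.12 to 7.91 in empty MN and 7.13 to 8.22 in loaded MN libraries.

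**Figure D5:**
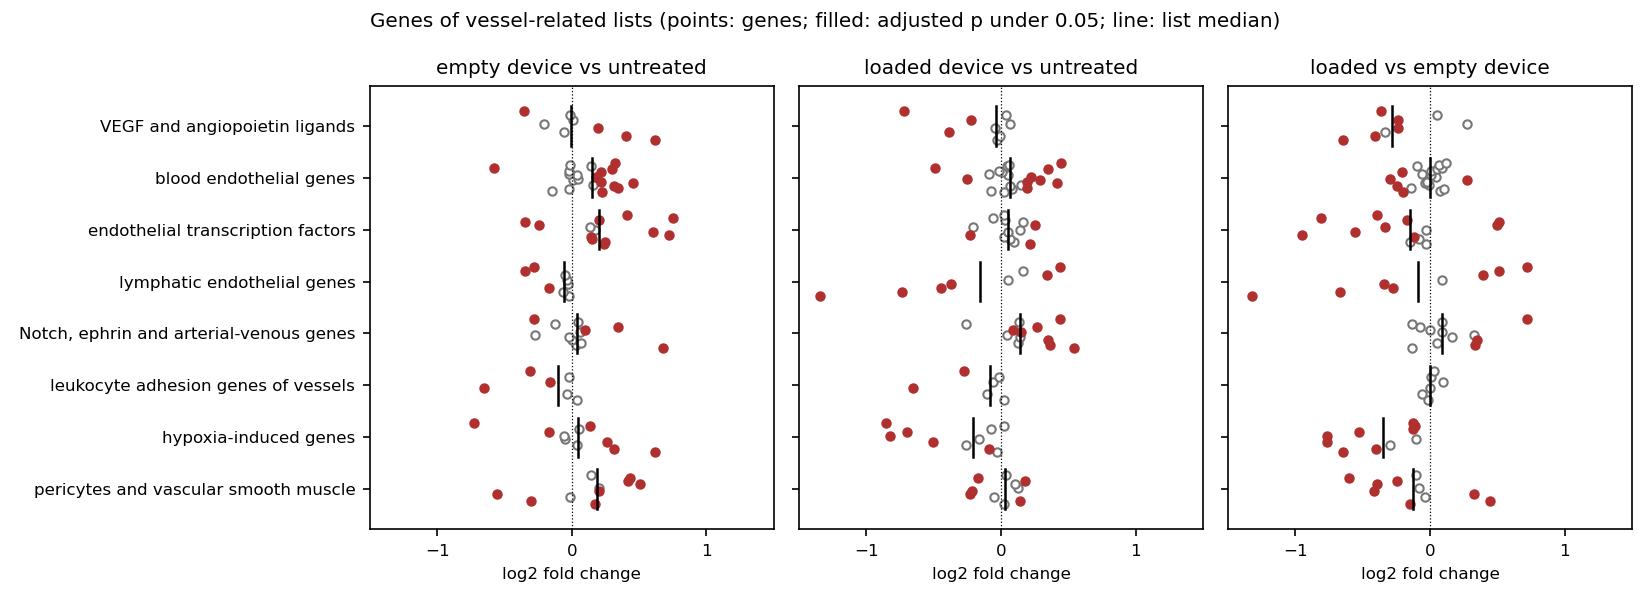
Log2 fold change of the genes of each vessel-related list (horizontal axis, 1 point per gene, filled where the adjusted p was under 0.05, with the list median as a line) in the 3 comparisons. The median of the hypoxia-induced genes lies at -0.35 in loaded against empty MN, and that of the Notch, ephrin and arterial-venous genes at 0.14 in loaded MN against untreated.

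The genes whose pattern over the 9 libraries was most like that of each member were taken by the root mean square difference of centred log2 CPM, over 13858 genes. For Flt1 these were Piezo1, Fbxl20 and Plch2 (differences 0.0323, 0.0331 and 0.0341, beside 0.179 for the deviations of Flt1 itself). Prox1 was most like Satb1 (0.0527, beside 0.217), Neurl3 and Prkag3, and Flt4 like Ttc30b (0.0675, beside 0.212), Ffar2 and Col5a2. The nearest to Pdpn were Immp1l (0.0454, beside 0.236), Gfra1 and Msantd4, and the nearest to Kdr Tnfrsf25 (0.0536, beside 0.168), Fosl1 and Adcy6. Pecam1 deviated by only 0.0498 itself and its nearest gene, Tnfrsf14, differed by 0.0259.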

How the data were processed

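Polyadenylated RNA was extracted with a Qiagen kit and made into libraries with an IDT xGen kit, per the labels' protocols. HISAT2 and featureCounts are named, with the build mm39, per the submitters' processing notes, and the sources used here give neither their versions nor their settings. The deposited values are raw counts per gene, per the file headers. The gene length equalled the whole span for 99.9% of genes, so reads in introns enter a count. Gm13662 shares 9877 bases with Itga6 on the same strand and held 0 counts in every library. Angpt2 lies wholly within Mcph1 on the opposite strand and held 329 counts or more. The strands thus appear counted apart, and reads shared by genes of the same strand appear left out. Groups were taken from the treatment labels. Genes were kept with filterByExpr (minimum count 10, minimum total 15), which left 26081 genes, and TMM-scaled counts of all 9 libraries entered 1 fit in edgeR 4.0.16 (R 4.3.3) with a coefficient for each group and the robust quasi-likelihood test. The p-values were adjusted by Benjamini-Hochberg across every gene tested, and a gene under 0.05 was called. Standard errors come from the F statistic and intervals are at 95%. The members had 181 to 3828 counts per library, at which counting alone gives a coefficient of variation of 0.0743 to 0.0162, so for members of few counts, Prox1 and Sox17 among them, counting error exceeds the common biological coefficient of variation of 0.0390.

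The members and gene lists were chosen with earlier results of these data known. Of each list, up to 4 genes with the smallest p of a 3-group edgeR test are eligible to be named, and for each member the 3 genes of at least 1 CPM with the most alike pattern. The steps were tested on simulated counts, with 50 genes of 2 to 40 CPM changed at each fold. Of 1.1-fold changes, 14%, 14% and 4% were recovered in loaded MN against untreated, loaded against empty MN and empty MN against untreated. At 1.25-fold these shares were 72%, 72% and 60%, and at 1.5-fold 100%, 98% and 98%. Of unchanged genes, at most 0.067% were called. Alternatives were DESeq2 size factors, upper-quartile scaling, library size alone, no filter, a minimum count of 50, DESeq2 1.42.0, limma-voom (limma 3.58.1), no robust estimate, a fit of the 2 groups alone, a block for the replicate number, and each library left out in turn.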

Additional observations from a re-analysis of the deposited data

How the results depend on the processing

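Over all alternatives and comparisons, 546 of 570 values for members kept their side of the threshold, 13 lost the call and 10 gained one in the same direction. The other is Pecam1 in empty MN against untreated, -0.00069 with TMM and 0.10 with library size alone, where it was called (edgeR adjusted p = 0.0418). In all, 39 of the 570 values had the other sign, and they belong to 8 differences of which edgeR called 0 with TMM. These are Pecam1 in all 3 comparisons, Tek and Sox18 in empty MN against untreated (up to 0.057 and 0.098), Prox1 in loaded MN against untreated (from -0.097 to 0.036), and Sox17 and Pdpn in loaded against empty MN (down to -0.081 and -0.046), so no direction is read for them. Library size alone moved the share of calls that were higher from 44.9% to 68.1% in loaded MN against untreated and from 41.7% to 57.9% in empty MN against untreated, and upper-quartile scaling moved it to 53.0% in the latter and from 55.3% to 44.4% in loaded against empty MN. With library size alone 9, 3 and 8 members were called in loaded MN against untreated, loaded against empty MN and empty MN against untreated. Among the gene lists, library size alone changed the higher calls in loaded MN against untreated from 7 to 11 for blood endothelial genes, from 2 to 8 for transcription factors and from 2 to 4 for lymphatic genes, and the lower calls from 3 to 1 for the ligands. In the same comparison higher and lower calls went from 2 and 3 to 3 and 1 for pericytes and vascular smooth muscle, from 1 and 4 to 2 and 2 for muscle fibres, and from 0 and 4 to 2 and 2 for basal keratinocytes. In empty MN against untreated it changed the higher calls from 9 to 14 for blood endothelial genes and from 3 to 7 for Notch, ephrin and arterial-venous genes (5 with upper-quartile scaling), the lower calls from 3 to 1 for lymphatic genes, and the calls for basal keratinocytes from 1 and 3 to 2 and 2. Leaving out each library, the member counts ran from 5 to 7, 2 to 3 and 7 to 7, and those over all genes from 9552 to 11542, 9579 to 11330 and 11630 to 12388. The replicate numbers did not pair the libraries: 0 of 9 same-numbered pairs correlated above 0.1, and 4 of 9 libraries correlated best with their own number. With the replicate number as a block, 7, 3 and 7 members and 10960, 10753 and 12490 genes were called, and Cdh5 gained a call in loaded MN against untreated (0.12, edgeR adjusted p = 0.0477). With 3 libraries a group, small differences such as those of Pecam1 and Tek are known only to within their intervals.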
